A study of Mus musculus with 6 samples.

Results

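Integrins and laminins were examined in bulk RNA-seq of the mouse vestibular sensory epithelium as the protein-coding genes of the deposited table whose symbols name an integrin alpha or beta subunit, the integrin beta-like gene Itgbl1, or a laminin alpha, beta or gamma chain. This gave 39 of 52636 genes, of which 38 are described, with 37 distinct symbols, because Itgam is listed under 2 gene identifiers. Each library held the 2 utricles and 6 cristae of 1 male 129S1/SvImJ mouse, aged 2 to 4 months when exposure began. The 3 Control mice drank plain water for 8 weeks, and the 3 IDPN mice drank water with 30 mM 3,3'-iminodipropionitrile (IDPN), a nitrile toxic to the sensory hair cells (HCs). Title codes of the Control animals have a common stem not seen in IDPN animals, so that an effect tied to the stem and one of IDPN cannot be told apart. Both groups belong to 1 strain and 1 sex, the labels give all 6 libraries the same batch, and the comparison covers a single dose and time.

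Integrins are cell-surface receptors made of 1 alpha and 1 beta subunit, which link the matrix outside the cell to the actin cytoskeleton or, for alpha6-beta4, to intermediate filaments. Laminins are cross-shaped secreted proteins made of an alpha, a beta and a gamma chain, and they form the main cell-binding sheet of basement membranes. Laminin trimers are named by their chains, so that laminin-511 holds the products of Lama5, Lamb1 and Lamc1. In the inner ear a basement membrane separates the sensory epithelium, with its HCs and supporting cells, from the vessels and connective tissue beneath it.

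The libraries held 40474847 to 43566332 estimated counts each, of which the 38 genes took 21066 to 32439 counts (0.0498% to 0.0780%). Counts were divided by DESeq2 size factors to give normalized counts, and values per library are listed in the order of replicates 1, 2 and 3. Markers of HCs (Pou4f3, Otof) and of supporting cells (Gjb6, Otog) were abundant in all libraries, whereas Hes5, also listed for supporting cells, did not exceed 5.77 normalized counts. Markers of Schwann cells (Mbp, Pmp22), mural cells (Rgs5) and stroma (Dcn) were abundant as well. Of the 38 genes, 33 had a mean normalized count of at least 10 over the 6 libraries. The other 5 were Itgad, which had no count in any library, Itgax, Itgae, Itga10 and the second Itgam identifier, and their changes were too uncertain at this depth to be described. Genes were called at a DESeq2 adjusted p (Padj) below 0.05 together with a fold change above 1.5. Of the 35 members with a Padj, 1 was called upregulated and 2 downregulated. Over all 17650 genes tested, 2.32% were called upregulated, 3.42% downregulated and 5.75% in either direction, so the 3 calls concern the named genes and say little about the family as a whole. A Padj under 0.05 at any fold was held by 5 members and by 6.33% of all genes tested. The unadjusted DESeq2 p was under 0.05 for 10 members, 7 of them higher in IDPN (16.9% of all genes tested, and 7.77% higher), and a DESeq2 test against a 1.5-fold change called 0 members (0.178% of all genes in that test up and 0.582% down). EdgeR called 0 members up and 1 down, although its unadjusted p was under 0.05 for 11 members, 8 of them higher in IDPN (17.7% of all genes it tested, and 8.57% higher). EdgeR called 1.02% of its genes up, 2.19% down and 3.21% in either direction. Total-count scaling called 4 members up and 1 down, with 3.64% of genes up, 1.28% down and 4.92% in either direction.

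The called genes were the laminin chain Lama4, which was upregulated, and the integrin beta-like gene Itgbl1 and the leukocyte integrin subunit Itgal, which were downregulated. The medians that follow describe the laminins and integrins side by side and were not tested against each other. For the 10 laminin genes described the median log2-Fold_Change was 0.34, with 8 estimates higher and 2 lower. The 25 integrin genes tested had a median of 0.011, with 14 higher and 11 lower, beside a median of 0.015 over all genes tested. When counts were scaled by library totals instead, the median gene moved up by 0.25 on the log2 scale, and the medians became 0.59 for the laminins, 0.28 for the integrins and 0.27 for all genes tested. The groups' libraries did not overlap for 11 of the 35 tested members, 8 higher and 3 lower in IDPN. Over all genes tested the groups did not overlap for 22.5%, with 11.1% higher and 11.4% lower.

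**Figure D1:**
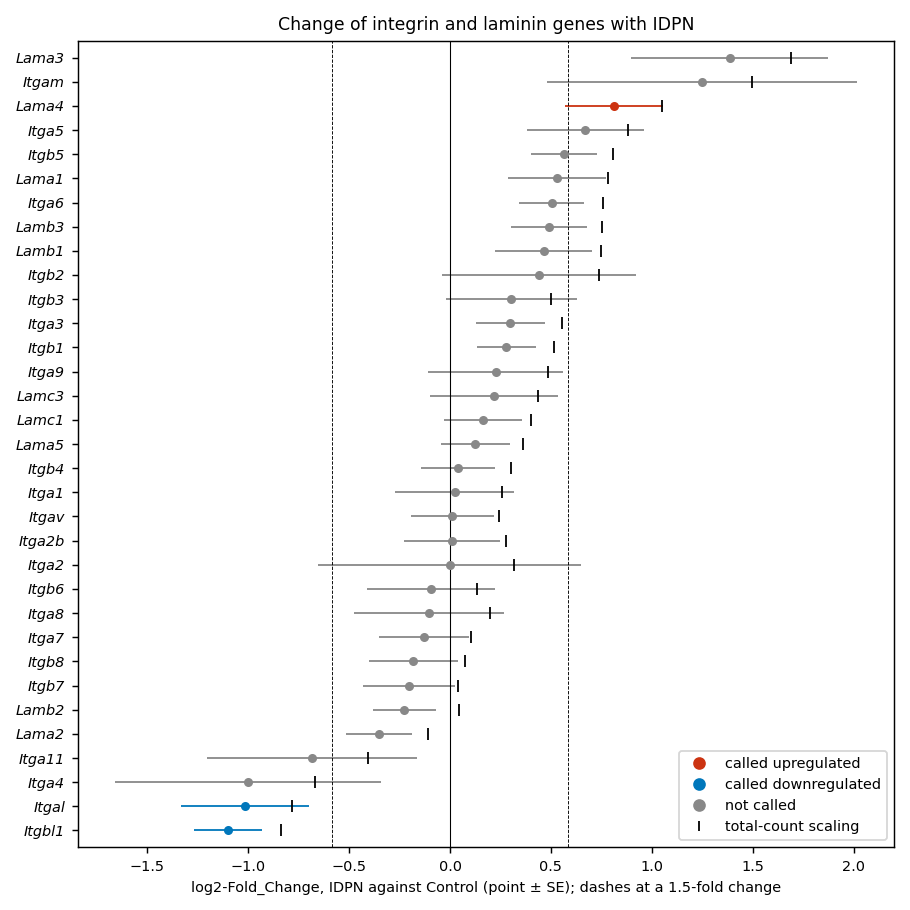
The log2-Fold_Change (x axis, IDPN against Control) of the 33 genes whose mean normalized count reached 10, 1 gene per row, with bars for the SE of the DESeq2 estimate from 3 animals per group and upright ticks for the estimate under total-count scaling. Lama4 (0.81) is called upregulated and Itgbl1 (−1.10) and Itgal (−1.02) downregulated, and the ticks lie to the right of the points.

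Itgbl1 had the lowest p of all members. It encodes a secreted protein with the cysteine-rich repeats of integrin beta subunits, without their transmembrane part. Its normalized counts were 1820.5, 1484 and 1634 in the Control libraries against 847, 738 and 719.5 in the IDPN libraries, so that every IDPN library lay well below every Control library. Itgbl1 (ENSMUSG00000032925.16, chromosome 14, 123659971 to 123975618, GRCm38) fell from a mean of 1646 ± 168 to 768 ± 68.7 (SD, n = 3 per group). Its log2-Fold_Change was −1.10 with an SE of 0.17 and a DESeq2 Padj of 1.41e-08. It kept its call with edgeR (adjusted p = 0.00271), under total-count scaling (−0.84, DESeq2 Padj = 0.0137) and in each of the 6 fits without 1 library, in which the log2-Fold_Change ran from −1.17 to −1.03. Per kb of exon, Itgbl1 was the third most abundant member in Control at 389 ± 39.8 normalized counts per kb (SD, n = 3), and it stood at 182 ± 16.2 in IDPN. In bulk tissue, fewer cells that express a gene and less RNA per cell cannot be told apart. The HC markers Pou4f3, Gfi1, Otof, Slc17a8 and Ocm were also called downregulated, 5 of the 6 listed, with Myo7a the exception. The 6 together summed to 15637 to 16359 in Control and 8001 to 8671 in IDPN (normalized counts). The 6 supporting cell markers summed to 257365 to 373653 in Control and 173040 to 214870 in IDPN, mostly from Gjb2 and Gjb6. All 5 of these that were tested had lower estimates. Gjb6 was called downregulated (−0.94, DESeq2 Padj = 2.80e-05), though not by edgeR (adjusted p = 0.0690). The part of either cell type in the change of Itgbl1 was not tested.

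Promoter sequences from RefSeq (GRCm38.p6) were found for 24 of the 37 symbols, and are shown for Itgbl1, the member with the lowest p, and for Itgb5, the integrin beta subunit with the lowest p among those that were higher in IDPN. The stretches end at the base before the GENCODE start of each gene, on the + strand, at chr14:123659890-123659970 for Itgbl1 and chr16:33829415-33829664 for Itgb5. Capitals mark GGGCGG on either strand, the core of the GC box.
Itgbl1: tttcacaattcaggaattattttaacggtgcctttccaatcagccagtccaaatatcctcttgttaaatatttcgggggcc
Itgb5: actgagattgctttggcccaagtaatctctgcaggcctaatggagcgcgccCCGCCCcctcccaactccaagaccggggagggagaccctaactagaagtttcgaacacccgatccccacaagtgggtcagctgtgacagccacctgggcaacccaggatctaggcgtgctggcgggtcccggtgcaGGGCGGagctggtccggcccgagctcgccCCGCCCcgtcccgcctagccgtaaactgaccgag
Both strands were searched for the TATA box as TATAAA, for the AP-1 site as TGANTCA, which reads the same on both strands, and for the GC box core as GGGCGG. The Itgb5 stretch held 3 matches to GGGCGG and none to the other motifs. The 81 bases of Itgbl1 held no match to any of the 3 motifs. The 250-base RefSeq window that begins with those bases, and runs past the GENCODE start, held 1 match to GGGCGG. Of 32851 RefSeq promoters, the 250 bases before the start held GGGCGG in 32.7%, TATAAA in 12.4% and TGANTCA in 6.75%.

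Lama3 and Lamb3, an alpha and a beta chain of epithelial basement membranes, were higher in IDPN without being called. Lama3 was scarce, with normalized counts of 20.6, 28.9 and 16.01 in the Control libraries against 73.7, 40.2 and 55.99 in the IDPN libraries. All 3 IDPN libraries lay above all 3 Control libraries, with 1.39 as log2-Fold_Change (SE 0.49, DESeq2 Padj = 0.0637). Lama3 was called under total-count scaling (DESeq2 Padj = 0.0324) and when genes under 10 counts in 3 samples were removed first (DESeq2 Padj = 0.0457). Lamb3 had normalized counts of 354, 322 and 332 in the Control libraries against 506, 451 and 461 in the IDPN libraries, again with no overlap, and 0.49 as log2-Fold_Change (SE 0.19, DESeq2 Padj = 0.104). Annotated genes on the opposite strand overlap exons of Lama3, Lama2, Lamc3, Itgb4, Itga7, Itga8 and Itgav, and without strand their reads cannot be told apart.

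Lama4 encodes the alpha chain of laminin-411 and laminin-421, which is abundant in the basement membrane of blood vessels and nerves. Normalized counts of Lama4 were 218, 167 and 256 in the Control libraries against 437, 378 and 315 in the IDPN libraries. The groups did not overlap, although Control 3 and IDPN 3 were close. Lama4 (ENSMUSG00000019846.11, chromosome 10, 38965515 to 39110188) rose from a mean of 214 ± 44.6 to 376 ± 61.2 (SD, n = 3 per group). Its log2-Fold_Change was 0.81 with an SE of 0.24 and a DESeq2 Padj of 0.0185. The call was kept under total-count scaling (1.05, DESeq2 Padj = 0.0211) and with offsets for exon length (0.79, DESeq2 Padj = 0.0146). It was lost with edgeR (adjusted p = 0.0742) and without Control 1 (DESeq2 Padj = 0.0808), Control 2 (0.158), IDPN 1 (0.169) or IDPN 2 (0.0762). Over the 6 fits without 1 library, the log2-Fold_Change ran from 0.66 to 0.97. Among endothelial markers the sum of 6 genes was 3165 to 4288 in Control and 2916 to 4101 in IDPN, with Kdr called downregulated and none upregulated. Kdr was also called by edgeR (adjusted p = 0.0271) but not under total-count scaling (DESeq2 Padj = 0.0780). Tie1, a receptor of endothelial cells on that list, had normalized counts of 186, 207 and 219.8 in the Control libraries against 319, 377 and 274 in the IDPN libraries, higher in every IDPN library (0.66, DESeq2 Padj = 0.0554), and was called upregulated under total-count scaling (DESeq2 Padj = 0.0323). The sum of 5 mural cell markers was 8529 to 12458 in Control and 10174 to 12296 in IDPN. That of 4 Schwann cell markers was 89820 to 205015 in Control and 81358 to 96956 in IDPN. Of those 4, Sox10 was called upregulated, and Mbp, Pmp22 and Prx had lower estimates without a call. The ranges of these sums overlapped between the groups, and their part in the change of Lama4 was not tested.

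**Figure D2:**
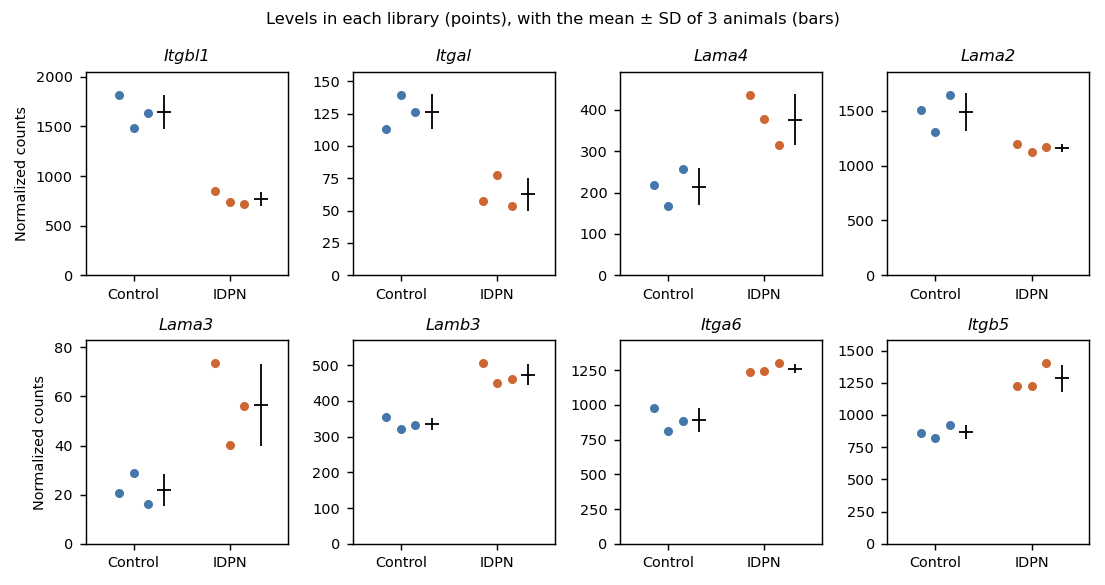
Normalized counts (y axis, from 0) of 8 genes in the 3 Control and 3 IDPN libraries, with points for single libraries and bars for the mean ± SD (n = 3). Itgbl1, Itgal and Lama2 are lower in every IDPN library, and Lama4, Lama3, Lamb3, Itga6 and Itgb5 are higher there, with no overlap with Control.

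The remaining laminin alpha chains were not called. Lama2, the alpha chain of muscle and nerve basement membranes, had the highest level per kb of the alpha chains in Control, at 90.9 ± 10.6 normalized counts per kb (SD, n = 3), and in IDPN, at 71.2 ± 2.22, it stood below Lama5 at 80.1 ± 1.47. With the longest transcript as length, Lama2 was above Lama5 in IDPN as well, at 121 ± 3.77 normalized counts per kb against 80.1 ± 1.47 (SD, n = 3). Its normalized counts were 1505, 1304 and 1648 in the Control libraries against 1196, 1125 and 1171 in the IDPN libraries. It was lower in all IDPN libraries than in all Control libraries, with a log2-Fold_Change of −0.35 (DESeq2 Padj = 0.225) that shrank to −0.11 under total-count scaling. Lama1, an alpha chain of embryonic and some adult epithelia, was higher in all IDPN libraries (0.53, DESeq2 Padj = 0.213). Lama5, the broadly expressed alpha chain of laminin-511 and laminin-521, was at 836 ± 98.2 normalized counts in Control against 912 ± 16.7 in IDPN (SD, n = 3 per group; log2-Fold_Change 0.13, 95% interval −0.21 to 0.46).

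Of the other beta and gamma chains, Lamb2 was by far the most abundant laminin gene, at 849 ± 109 normalized counts per kb in Control (SD, n = 3). Normalized counts of Lamb2 were 5670, 5405 and 4408 in the Control libraries against 4447, 4369 and 4423 in the IDPN libraries, with Control 3 inside the IDPN range. The log2-Fold_Change of Lamb2 was −0.23 (DESeq2 Padj = 0.506), and 0.046 under total-count scaling, which turned its direction. Lamb1 had normalized counts of 528, 421 and 478 in the Control libraries against 899.6, 510 and 557 in the IDPN libraries, and IDPN 1 stood apart from IDPN 2 and IDPN 3 (0.46, DESeq2 Padj = 0.301). Lamc1, the gamma chain shared by most laminins, had normalized counts of 1545, 1108 and 1697 in the Control libraries against 1752, 1596 and 1524 in the IDPN libraries with overlapping groups (0.16, DESeq2 Padj = 0.760). Lamc3 was low in both groups, at 97.9 ± 29.3 normalized counts in Control against 114 ± 7.82 in IDPN (SD, n = 3 per group; log2-Fold_Change 0.22, DESeq2 Padj = 0.820).

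The make-up of the laminin alpha and beta chains was then expressed as shares of the counts per kb within a library, which do not depend on the size factor. These shares are given without a test, and within a class they add to 100%, so that a higher share of one chain lowers the others. Among the alpha chains, the share of Lama2 was 47.6%, 42.2% and 44.5% in the Control libraries against 32.3%, 33.1% and 33.9% in the IDPN libraries, lower in every IDPN library. The share of Lama4 was 9.35%, 7.32% and 9.36% in the Control libraries against 15.99%, 15.03% and 12.3% in the IDPN libraries, and that of Lama3 0.992%, 1.42% and 0.657% in the Control libraries against 3.03%, 1.80% and 2.46% in the IDPN libraries, both without overlap. Lama1 held 9.45% ± 1.99 in Control against 12.8% ± 1.17 in IDPN (SD, n = 3 per group), again without overlap, whereas Lama5 held 36.1% ± 1.66 in Control against 37.2% ± 1.10 in IDPN (SD, n = 3 per group) with overlapping groups. The Lama4 count as a ratio to the Lama2 count, which is not corrected for length and is read only across libraries, was 0.145, 0.128 and 0.156 in the Control libraries against 0.365, 0.336 and 0.269 in the IDPN libraries. This ratio divides a gene already higher by a gene already lower in every IDPN library, so it adds no separate evidence. As shares of alpha chain RNA, Lama2 was lower and Lama4, Lama3 and Lama1 were higher in the IDPN libraries, and only Lama4 was called as a gene.

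Lamb2 dominated the beta chains in both groups, with 89.5% ± 1.34 in Control against 84.1% ± 2.38 in IDPN (SD, n = 3 per group), and was lower in every IDPN library. The share of Lamb3 was 5.15%, 4.97% and 6.10% in the Control libraries against 8.51%, 8.14% and 8.17% in the IDPN libraries, and Lamb1 held 5.10% ± 0.759 in Control against 7.61% ± 2.17 in IDPN (SD, n = 3 per group), both without overlap. Lengths are the union of annotated exons, and with the longest transcript instead the Lama2 share was 54.2% in Control and 40.8% in IDPN. The order of the groups was the same with both lengths for each of the 8 chains.

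**Figure D3:**
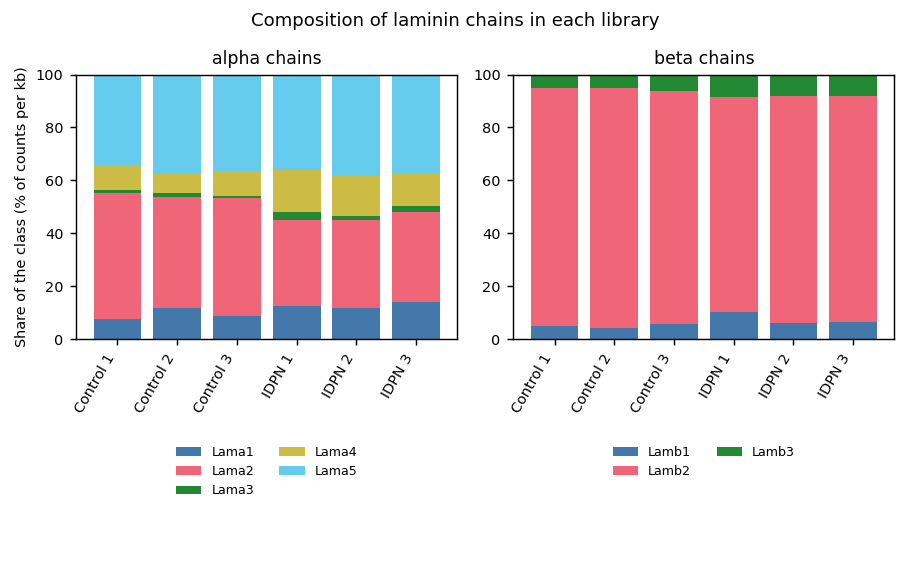
Share of each chain (y axis, % of normalized counts per kb of exon within the class) in the laminin alpha and beta classes of the 6 libraries (x axis), as stacked bars. The Lama2 part is smaller in the 3 IDPN libraries and the Lama4 part larger, while Lamb2 makes up most of the beta chains in all 6 libraries.

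No subunit of the laminin-binding integrins was called. Itgb1, the beta subunit shared by most integrins, was the most abundant member, at 1701 ± 119.9 normalized counts per kb in Control and 2064 ± 152 in IDPN (SD, n = 3 per group). Its normalized counts were 6395, 7093 and 7338 in the Control libraries against 8409, 9052 and 7809 in the IDPN libraries. All IDPN libraries were above all Control libraries, but the log2-Fold_Change of 0.28 (SE 0.15) did not pass (DESeq2 Padj = 0.316). Itga6, the alpha subunit that pairs with beta1 or, in hemidesmosomes, beta4, had normalized counts of 976, 808 and 883 in the Control libraries against 1236, 1245 and 1301 in the IDPN libraries. The groups did not overlap for Itga6, and the DESeq2 Padj of 0.0354 passed while the log2-Fold_Change of 0.50 (SE 0.16) stayed under the fold threshold, so it was not called. The edgeR adjusted p of Itga6 was 0.0597, and under total-count scaling it was called (0.76, DESeq2 Padj = 0.0210). Without Control 2 its DESeq2 Padj was 0.192, without IDPN 1 0.105, without IDPN 2 0.0869 and without IDPN 3 0.147.

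Itga3, which pairs with beta1 to bind laminins such as laminin-511, had the highest level per kb of the laminin-binding alpha subunits in Control, at 113 ± 4.90 (SD, n = 3), and was level with Itga6 in IDPN, at 139 ± 12.9 against 139.7 ± 3.88. This order depends on the length used, and with the longest transcript Itga6 was the higher in Control, at 206 ± 19.6 against 132 ± 5.75 per kb, and in IDPN, at 293 ± 8.13 against 163 ± 15.2 (SD, n = 3 per group). Normalized counts of Itga3 were 671, 644 and 615 in the Control libraries against 812, 852 and 709 in the IDPN libraries, without overlap, and the log2-Fold_Change of 0.30 (SE 0.17) did not pass (DESeq2 Padj = 0.387). Itgb4, the partner of alpha6 in hemidesmosomes, had normalized counts of 767, 753 and 608 in the Control libraries against 665, 767 and 752 in the IDPN libraries, and the groups overlapped (log2-Fold_Change 0.04, 95% interval −0.32 to 0.40). Itga7, the laminin receptor subunit best known from muscle, was at 330.3 ± 29.5 normalized counts in Control against 302 ± 54.5 in IDPN (SD, n = 3 per group; −0.13, DESeq2 Padj = 0.856), a direction that turned under total-count scaling (0.10). The ratio of Itga6 to Itgb4 counts was 1.27, 1.07 and 1.45 in the Control libraries against 1.86, 1.62 and 1.73 in the IDPN libraries, so that Itga6 was higher relative to Itgb4 in each IDPN library. This ratio was chosen after the values were seen.

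**Figure D4:**
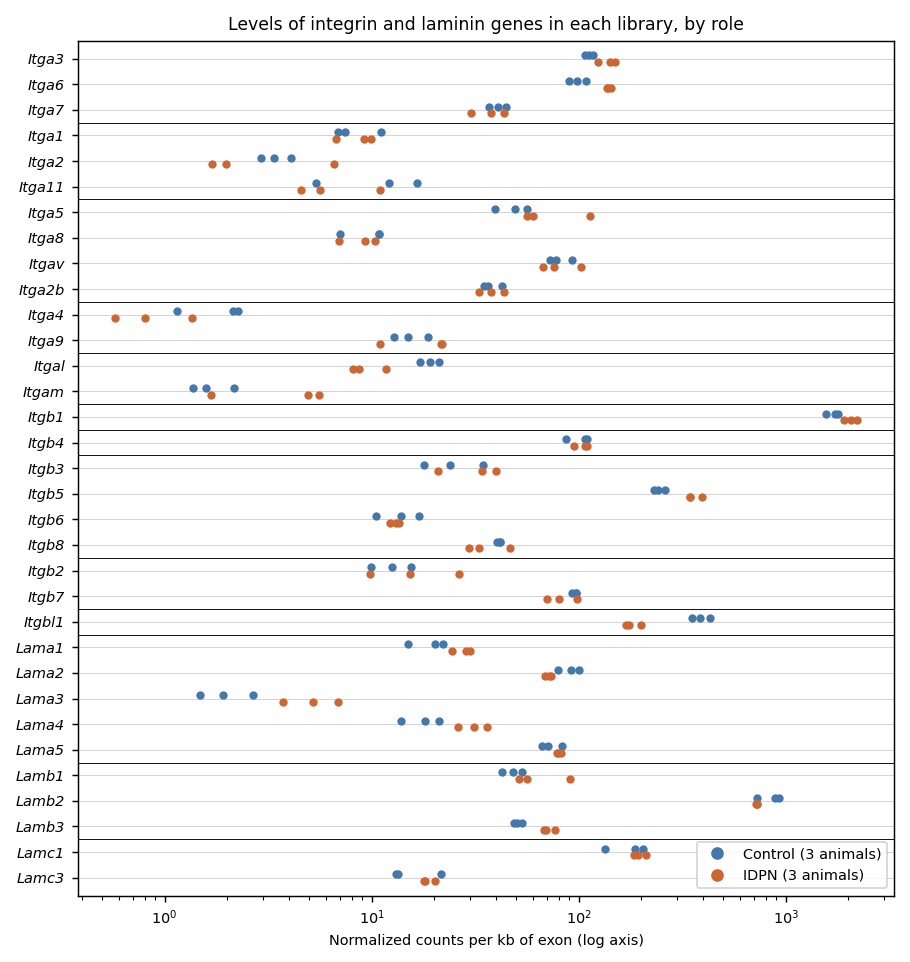
Normalized counts per kb of exon (x axis, log scale) of the 33 genes whose mean normalized count reached 10, grouped by role with lines between roles and with 1 point per library. Itgb1 is the highest, followed by Lamb2 and, in Control, Itgbl1, and Itga4, Itgam, Itga2 and Lama3 are the lowest.

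Among subunits that bind ligands with the RGD sequence, such as vitronectin and fibronectin, Itgb5 had the lowest p. Itgb5 pairs with alphav as a vitronectin receptor. Its normalized counts were 862, 819 and 923 in the Control libraries against 1226, 1222 and 1404 in the IDPN libraries, higher in every IDPN library. The log2-Fold_Change of 0.56 (SE 0.16) had a DESeq2 Padj of 0.0137 and an edgeR adjusted p of 0.0427, but lay just under the fold threshold, so Itgb5 was not called. It was called under total-count scaling (0.81, DESeq2 Padj = 0.0197) and without Control 3 (0.61), IDPN 1 (0.60) or IDPN 2 (0.60), and its Padj did not pass without Control 1 (0.0693), Control 2 (0.0968) or IDPN 3 (0.103).

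Its partner Itgav did not follow it, with normalized counts of 831, 783 and 1002 in the Control libraries against 724, 814 and 1099 in the IDPN libraries and overlapping groups (log2-Fold_Change 0.011, 95% interval −0.39 to 0.42). The Itgb5 count as a ratio to the Itgav count, also chosen after the values were seen, was 1.04, 1.05 and 0.922 in the Control libraries against 1.69, 1.501 and 1.28 in the IDPN libraries. Itga5, the alpha subunit of the main fibronectin receptor, had normalized counts of 277, 194 and 242 in the Control libraries against 276, 560.2 and 299 in the IDPN libraries, where IDPN 2 stood above the others and Control 1 was level with IDPN 1 to within 1 count (0.67, DESeq2 Padj = 0.174). The other alphav partners Itgb3 (0.30), Itgb6 (−0.095) and Itgb8 (−0.18) and the alpha subunits Itga8 (−0.10) and Itga2b (0.0092) were not called, with DESeq2 Padj from 0.729 to 0.991. Under total-count scaling Itgb6 (0.13), Itgb8 (0.074) and Itga8 (0.20) changed sign.

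No collagen receptor subunit was called. Itga11, which binds fibrillar collagen, had the highest level per kb of these in Control, with normalized counts of 84.9, 62.3 and 27.6 in the Control libraries against 28.97, 56.2 and 23.3 in the IDPN libraries and overlapping groups (−0.68, SE 0.52, DESeq2 Padj = 0.568). With the longest transcript as length, Itga1 was the higher in Control, at 14.4 ± 3.95 normalized counts per kb against 11.7 ± 5.81 for Itga11 (SD, n = 3). Itga1, which binds collagen IV, was at 158 ± 43.3 normalized counts in Control against 161 ± 31.2 in IDPN (SD, n = 3 per group; 0.023, 95% interval −0.55 to 0.60), and an annotated gene on the same strand overlaps its exons, so that its counts are uncertain. Itga2 was too low for a narrow estimate, at 24.6 ± 4.20 normalized counts in Control against 24.5 ± 19.7 in IDPN (SD, n = 3 per group), with a 95% interval of −1.28 to 1.27 on the log2 scale. Of the related alpha4 and alpha9 subunits, Itga9 had normalized counts of 98.2, 115 and 144 in the Control libraries against 166, 84.3 and 169 in the IDPN libraries (0.23, DESeq2 Padj = 0.822). Itga4 was low, at 25.9 ± 8.55 normalized counts in Control against 12.8 ± 5.66 in IDPN (SD, n = 3 per group; −1.003, SE 0.66, DESeq2 Padj = 0.475), and the annotated exons of Cerkl overlap its own on the opposite strand.

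Of the leukocyte integrin subunits, 1 was called. Itgal encodes alphaL, the subunit that pairs with beta2 to form LFA-1 on lymphocytes and other leukocytes. Normalized counts of Itgal were 113, 139.7 and 126 in the Control libraries against 57.1, 77.3 and 53.2 in the IDPN libraries, lower in every IDPN library. Itgal (ENSMUSG00000030830.18, chromosome 7, 127296260 to 127335138) fell from a mean of 126 ± 13.4 to 62.5 ± 12.9 (SD, n = 3 per group). Its log2-Fold_Change was −1.02 with an SE of 0.32 and a DESeq2 Padj of 0.0272. The call was not held by edgeR (adjusted p = 0.0851) or under total-count scaling (DESeq2 Padj = 0.200). Among the 6 fits without 1 library it was kept only without IDPN 2 (DESeq2 Padj = 0.0231), and the Padj was 0.0674, 0.166 and 0.0610 without Control 1, 2 and 3, and 0.144 and 0.141 without IDPN 1 and 3.

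The partner of alphaL, Itgb2, had normalized counts of 30.3, 47.3 and 38.3 in the Control libraries against 80.3, 30.1 and 46.7 in the IDPN libraries, with overlapping groups (0.44, DESeq2 Padj = 0.732). Per kb of exon, Itgal was at 19.2 ± 2.05 and Itgb2 at 12.7 ± 2.79 in Control (SD, n = 3 per group). Of 6 lymphocyte markers, 1 gene, Cd79a, was abundant enough to be tested (−0.48, DESeq2 Padj = 0.460), Nkg7 had no count, and Cd3e, Cd3g, Cd3d and Ms4a1 did not exceed 7.45 normalized counts in any library. The pan-leukocyte gene Ptprc had normalized counts of 26.7, 23.1 and 16.9 in the Control libraries against 8.28, 40.2 and 21.5 in the IDPN libraries. The 10 macrophage markers summed to 2215 to 3106 in Control and 2654 to 3901 in IDPN, with none called. Their estimates were higher for 8 and lower for 2 (median log2-Fold_Change 0.35), and C1qc was called upregulated under total-count scaling (1.07, DESeq2 Padj = 0.00745). The 4 neutrophil markers summed to 0 to 31.2 in Control and 0 to 37.1 in IDPN. Cd79a, a part of the B-cell receptor, had normalized counts of 226, 224 and 124 in the Control libraries against 135, 111 and 164 in the IDPN libraries, with overlapping groups, so that 1 listed lymphocyte gene was well above 0 in every library while the others were at or near 0. Which cells the Itgal counts come from was not tested.

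Itgam, the alphaM subunit of macrophages and neutrophils, had normalized counts of 10.9, 6.93 and 8.01 in the Control libraries against 24.8, 28.1 and 8.40 in the IDPN libraries under its main identifier, without a call (1.25, SE 0.77, DESeq2 Padj = 0.430). The second identifier had no count in 5 of the 6 libraries, and since the annotated exons of both overlap on the same strand, the split between them is uncertain. Itgb7, which pairs with alpha4 or alphaE on lymphocytes, had a higher level per kb than Itgb2, at 95.5 ± 2.35 in Control (SD, n = 3). Its normalized counts were 257, 269 and 268 in the Control libraries against 195, 222 and 273 in the IDPN libraries, where IDPN 3 lay above all Control libraries (−0.20, DESeq2 Padj = 0.743, and 0.041 under total-count scaling). Its usual partners Itga4 and Itgae were far lower, at 1.85 ± 0.612 and 1.12 ± 0.972 normalized counts per kb in Control (SD, n = 3 per group). The platelet integrin Itga2b was at 37.99 ± 4.21 per kb, whereas 4 platelet markers summed to 55.4 to 72.95 in Control and 98.9 to 122 in IDPN normalized counts, nearly all of them from Pf4. Pf4 was not called (0.84, DESeq2 Padj = 0.115), and Ppbp, Gp9 and Gp1ba did not exceed 9.04 normalized counts in any library.

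**Figure D5:**
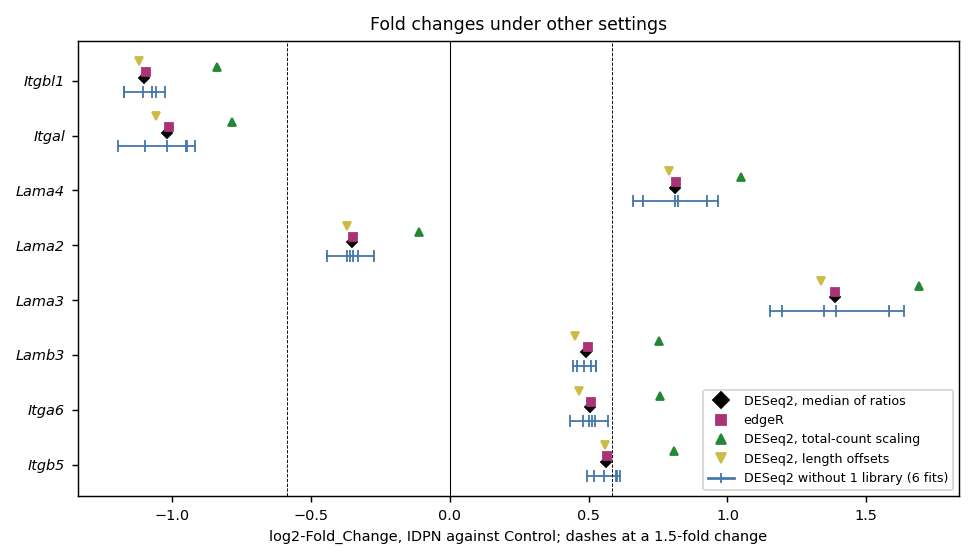
The log2-Fold_Change (x axis, IDPN against Control) of 8 genes with DESeq2 under 3 scalings, with edgeR, and with DESeq2 in the 6 fits that leave out 1 library each (bars and ticks). No gene changes sign, total-count scaling moves each estimate to the right, and Itgb5, Itga6 and Lamb3 lie near the 1.5-fold line.

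Partners of integrins and laminins were taken from 4 lists. The 16 genes of the basement membrane and of other laminin receptors, among them the nidogens, collagen IV chains, perlecan (Hspg2), agrin, dystroglycan and Bcam, held no called gene, with a median log2-Fold_Change of 0.25. Sparc, a collagen-binding matrix protein, was lower in every IDPN library and missed the fold threshold narrowly (log2-Fold_Change −0.58, DESeq2 Padj = 0.0255). It did not pass with edgeR (adjusted p = 0.213) or under total-count scaling (−0.34, DESeq2 Padj = 0.312). Nor did its DESeq2 Padj pass without Control 1 (0.190), Control 2 (0.124), IDPN 1 (0.179) or IDPN 3 (0.191). Under total-count scaling Nid2 was called upregulated (1.04, DESeq2 Padj = 0.0492). The 6 hemidesmosome and tetraspanin genes, including Plec and Cd151, held no call among the 5 tested and had a median of −0.091.

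Of the 28 adaptor and signalling genes at the inner side of integrins, 27 were tested, and 3 were called upregulated and 1 downregulated (median 0.22). Over all genes tested, 2.32% were called upregulated and 3.42% downregulated, so these calls concern the named genes. Lims2, a partner of integrin-linked kinase, had normalized counts of 273, 267 and 257 in the Control libraries against 499.9, 463 and 419 in the IDPN libraries. It rose by 0.80 on the log2 scale with an SE of 0.20 (DESeq2 Padj = 0.00202), and was called by edgeR (adjusted p = 0.0215) and in each of the 6 fits without 1 library. Fermt3, the kindlin of blood cells, rose from a mean of 25.5 ± 9.66 to 79.9 ± 27.4 normalized counts (SD, n = 3 per group; 1.63, DESeq2 Padj = 0.00955), but did not pass without Control 1 (DESeq2 Padj = 0.0838), Control 2 (0.0743) or IDPN 2 (0.177). Tgfb1i1 (Hic-5), a paxillin relative, rose by 1.00 (DESeq2 Padj = 0.0251) and did not pass without Control 1 (0.160), Control 2 (0.0632), IDPN 2 (0.148) or IDPN 3 (0.161).

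Vcl, the actin-binding adaptor vinculin, had normalized counts of 6595, 6131 and 6085 in the Control libraries against 4413, 4455 and 3599 in the IDPN libraries, lower in every IDPN library. Its log2-Fold_Change was −0.59 with an SE of 0.15 (DESeq2 Padj = 0.00401), close to the fold threshold, and its downregulation was not called with total-count scaling (−0.34, DESeq2 Padj = 0.376), by edgeR (adjusted p = 0.0656), without Control 1 (−0.56) or without IDPN 3 (−0.50). The talins, the remaining kindlins, integrin-linked kinase, the parvins and focal adhesion kinase (Ptk2) were not called. Total-count scaling called Pxn (0.74), Tns2 (0.74) and Bcar1 (0.88) upregulated in addition, and no adaptor downregulated, beside 3.64% of all genes up and 1.28% down. Of the 4 called adaptors, edgeR called Lims2 alone.

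Of 22 other integrin ligands, 16 were tested and 2 were called upregulated, with a median of 0.21, beside 2.32% of all genes tested called upregulated. Nov (Ccn3), a matricellular ligand of several integrins, had the largest log2-Fold_Change of the called partner genes, with normalized counts of 2555, 2156 and 1577 in the Control libraries against 5980.1, 8341 and 7549.9 in the IDPN libraries. It rose from a mean of 2096 ± 492 to 7290.5 ± 1202 (SD, n = 3 per group), at a log2-Fold_Change of 1.80 with an SE of 0.20 (DESeq2 Padj = 7.18e-16, edgeR adjusted p = 0.00185), and was called in each of the 6 fits without 1 library. Postn (periostin) rose by 1.53 (DESeq2 Padj = 0.0298) from counts as low as 26.7, 15 and 64.1 in Control 1 to 3, and did not pass without Control 1 (0.187), Control 2 (0.203), IDPN 1 (0.163) or IDPN 3 (0.248), or with edgeR (adjusted p = 0.144). Vtn (vitronectin), a ligand of alphav-beta5, was lower in every IDPN library at a DESeq2 Padj of 0.0117 without reaching the fold threshold (−0.56). Cdh1 (E-cadherin), the ligand of alphaE-beta7, was called under total-count scaling in addition (0.76, DESeq2 Padj = 0.0145). The fibrinogen genes Fga, Fgb and Fgg had no count. The 6 fibroblast and stroma markers summed to 20441 to 39051 in Control and 35993 to 38675 in IDPN, mostly from Dcn, and held no call. All 6 estimates were higher (median log2-Fold_Change 0.34), and Col1a2 was called upregulated under total-count scaling (0.71, DESeq2 Padj = 0.0132). The 6 supporting cell markers summed to 257365 to 373653 in Control and 173039.6 to 214870.1 in IDPN. Of these, Gjb6 was called downregulated (−0.94, DESeq2 Padj = 2.80e-05), though not by edgeR (adjusted p = 0.0690). The part of these cell types in the values above was not tested.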

How the data were processed

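Paired reads of 6 SMART-seq2 libraries (3 Control, 3 IDPN) were aligned by the authors with STAR 2.5.3a to GRCm38, and the deposited values are gene-level estimated counts (expected counts) from RSEM 2.3.0 on GENCODE M15, given as whole numbers with no normalization. RSEM splits reads shared by several genes. Reverse transcription from an oligo-dT primer started from 6 to 11 ng of RNA, with 8 and 12 amplification cycles and no molecular identifiers, so levels per kb are approximate. The protocol does not mark strand.

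The whole table of 52636 genes was fitted with the DESeq2 Wald test (DESeq2 1.42.0, R 4.3.3), as in the study's methods, with median-of-ratios size factors, no covariate, a threshold of 0.05 on the Benjamini-Hochberg adjusted p and of 1.5 on the fold change. The edgeR quasi-likelihood test (edgeR 4.0.16, TMM factors, filterByExpr) was the first alternative. The others were TMM or total-count size factors, a filter of 10 counts in 3 samples, independent filtering or the Cook's distance filter off, a test against 1.5-fold, offsets for exon length (lowess span 0.3), a table limited to protein-coding genes, and omission of each library in turn. The code was tested on simulated data, where a larger share of the DESeq2 calls than of the edgeR calls was false. Lengths and positions came from GENCODE M21 on GRCm38, a later release than the authors'. Intervals are 1.96 SE. Levels per kb with the longest transcript as length, which place other members first in some roles, were added after the data were seen.

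Genes given per library were called members, members called by edgeR, and the highest member per kb in each role. From each partner list, called genes were named. Other genes with values (among them Lama3, Lamb3, Itga6, Itgb5, Sparc and Vtn) were chosen after their values were seen. The members and lists were chosen with earlier results of these data known. The lists were 4 partner lists and markers of HCs, supporting cells, macrophages, lymphocytes, neutrophils, platelets, endothelium, mural cells, fibroblasts and Schwann cells. A member and some list genes are not reported here, and no count, sum or median over members or lists includes them.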

Additional observations from a re-analysis of the deposited data

How the results depend on the processing

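With DESeq2, 1 member was called upregulated and 2 downregulated (Lama4, Itgbl1 and Itgal). EdgeR called 0 and 1 (1.02% and 2.19% of all genes it tested), and total-count scaling 4 and 1 (3.64% and 1.28%). The filter of 10 counts in 3 samples called 2 members upregulated. A test against a 1.5-fold change called 0 in either direction, where 10 members had an unadjusted DESeq2 p under 0.05 (16.9% of all genes tested). Leaving out 1 library gave 0 to 2 upregulated and 1 to 2 downregulated. Of the partner genes, 5 were called upregulated and 1 downregulated (2.32% and 3.42% of all genes tested). The counts were 2 and 0 with edgeR (1.02% and 2.19%) and 10 and 0 under total-count scaling (3.64% and 1.28%). They were 1 and 0 against a 1.5-fold change (0.178% and 0.582%), and 2 to 7 and 0 to 5 without 1 library. The partner genes called downregulated numbered 3 with length offsets and 3 with the filter of 10 counts in 3 samples. No share over all genes is given for the filter, the length offsets or the fits without 1 library. Without it, the counts of members and partner genes in those fits cannot be compared with all genes. Total-count scaling turned the direction of Itga7 (0.10), Itga2 (0.32), Itga8 (0.20), Itgb6 (0.13), Itgb8 (0.074), Itgb7 (0.041) and Lamb2 (0.046). Itga2 also turned with edgeR (0.0097), TMM (0.0073) and protein-coding genes only (0.00073), and length offsets turned Itgav (−0.017), Itga2b (−0.024) and Itgb4 (−0.0050). None of these was called. Leaving out 1 library gave ranges that crossed 0 for Itga7 (−0.26 to 0.0068), Itga1 (−0.11 to 0.27), Itga2 (−0.91 to 0.32), Itga8 (−0.29 to 0.041), Itgav (−0.18 to 0.14), Itga2b (−0.10 to 0.10), Itgb4 (−0.060 to 0.11), Itgb6 (−0.26 to 0.089), Itgb2 (−0.0032 to 0.72) and Lamc1 (−0.0020 to 0.29). With the longest transcript in place of all exons, the Control and IDPN shares were 54.2% and 40.8% for Lama2, and 85.7% and 78.9% for Lamb2. The cause of the other changes between settings was not tested. Counts under about 10 limited Itgae, Itgax, Itga10 and Itgam. No paired analysis was possible because the labels give no replicate numbers that the groups share.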

Other observations

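Thbs1 (thrombospondin-1), a ligand of several integrins, had normalized counts of 1721, 1706 and 1601 in the Control libraries against 893, 21436 and 812 in the IDPN libraries. IDPN 2 stood far above the other 5 libraries, and the Cook's distance filter of DESeq2 left the gene without a p-value. Zyx (zyxin), an adaptor at the inner side of integrins, had normalized counts of 2331, 2635 and 2543 in the Control libraries against 1945, 5010.1 and 1819.8 in the IDPN libraries, and IDPN 2 was again the highest (0.22, DESeq2 Padj = 0.895). Of the endothelial genes, Kdr, the main receptor of vascular endothelial growth factor, had normalized counts of 854, 1199 and 1229.5 in the Control libraries against 599, 345 and 548 in the IDPN libraries. Its log2-Fold_Change was −1.14 with an SE of 0.24 (DESeq2 Padj = 9.96e-05), and under total-count scaling it was not called (−0.88, DESeq2 Padj = 0.0780). Pecam1 (−0.015, DESeq2 Padj = 0.987), Cdh5 (−0.11, DESeq2 Padj = 0.935) and Emcn (−0.013, DESeq2 Padj = 0.988) were not called, and Tie1 (0.66, DESeq2 Padj = 0.0554) and Tek (0.55, DESeq2 Padj = 0.215) had higher estimates without a call. Among the listed Schwann cell genes, Sox10 had normalized counts of 1938, 2625 and 3073 in the Control libraries against 4025, 4752 and 4562 in the IDPN libraries. It rose by 0.80 (SE 0.19, DESeq2 Padj = 0.00108). The other listed genes had lower estimates without a call, at −0.60 for Mbp (DESeq2 Padj = 0.134), −0.67 for Pmp22 (0.136) and −0.24 for Prx (0.675). These genes were chosen after their values were seen.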
